A study of Mus musculus with 16 samples.

Results

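Mouse embryonic stem (ES) cells treated with SU5402 for 24 h were compared with the same cells left untreated. Members were the arrays that the labels assign to these groups, 8 of the 16 arrays of the series. They come from 3 cultures a group, because culture 3 of each group was run on 2 arrays that were averaged. All 6 cultures were wild-type CCE cells, a single established mouse ES line, grown on gelatin in medium with serum and LIF. The treated cells received 5 µM SU5402, and no vehicle is named for the untreated ones. The other groups, wild-type cells given 20 mM sodium chlorate for 24 h and untreated Ndst1/2-/- cells, were used to estimate the spread, and chlorate for 1 further comparison.

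ES cells make their own FGF4, which binds FGF receptors at the cell surface with heparan sulfate as a co-receptor. The receptors signal through RAS and the kinases RAF, MEK and ERK, and ERK activity readies naive ES cells for lineage commitment. Active ERK also induces its own inhibitors, the Sprouty and Spred proteins and the DUSP phosphatases, so that these genes and the ETS factors of the PEA3 group (Etv1, Etv4 and Etv5) serve as readouts of the pathway. SU5402 is an indolinone that occupies the ATP pocket of the FGF receptor kinases and also acts on other receptor tyrosine kinases, among them VEGF and PDGF receptors.

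Levels are log2 bead intensities after background correction and quantile normalization, and differences are SU5402 minus untreated with their moderated standard error (SE). Single arrays detected 12235 to 12821 probes in these groups, and 13377 probes were tested, 12576 of them with a gene symbol, for 9107 named genes. The root mean square difference between 2 cultures of a group was 0.18 to 0.203, and between the 2 arrays of a single culture 0.176 and 0.19. The p-values thus measure mostly array-to-array spread, and nothing states that the cultures were grown independently. On the first principal component of the 6 cultures, which held 62.6% of the variance, the untreated cultures lay at -16.05 to -14.06 and the SU5402 cultures at 14.78 to 15.82. The cells matched their label: the 8 of 10 ES cell markers on the array were detected on all 8 arrays, 6 of 9 fibroblast markers on none, and the 3 blood markers on none. Thy1 was the only fibroblast marker detected on all 8 arrays, and its level fell with SU5402 (-0.74 ± 0.09). The summed intensity of the 9 fibroblast markers was 132 to 152 untreated and 101 to 121 with SU5402. This sum includes Thy1, at 6.5 untreated and 5.76 with SU5402, and is not separate from its fall. Col1a1, detected on 2 arrays of each group, was at 5.03 and 5.16. The part of the sum in the results was not tested. In such bulk RNA, fewer cells of a type and less RNA per cell cannot be told apart.

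A broad set of genes shifted by small amounts. With limma and Benjamini-Hochberg adjustment at 0.05, which defines a call here, 1597 probes were higher and 1548 lower, 23.5% of those tested (11.9% and 11.6%). The median size of a called difference was 0.345, and 280 of the higher and 195 of the lower calls reached 1.5-fold. At least 2-fold changes were 60 higher and 49 lower (0.449% and 0.366%), and at least 4-fold 3 and 4. The 2-fold counts depended on the treatment of background: they were 24 higher and 27 lower with an offset of 50, the same without background correction, and 103 and 87 with the authors' processed values. Of the 10232 probes not called, 246 had a 95% interval that reached 1.5-fold. By quartile of the mean level over both groups, 10 probes rose and 10 fell at least 2-fold in the lowest quartile, 29 and 12 in the second, 15 and 18 in the third and 6 and 9 in the brightest. With an offset of 50 the lowest quartile held 0 and 1 and the second 7 and 6. The offset used in background correction compresses folds of weak probes. By mean intensity the arrays form 2 sets that are balanced over the groups (replicate 1 with the first array of culture 3, and replicate 2 with the second), and within each set alone 844 and 816 probes were called higher and 691 and 693 lower. The share of probes called ran from 19.9% on chromosome 19 to 27.9% on chromosome 14.

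**Figure D1:**
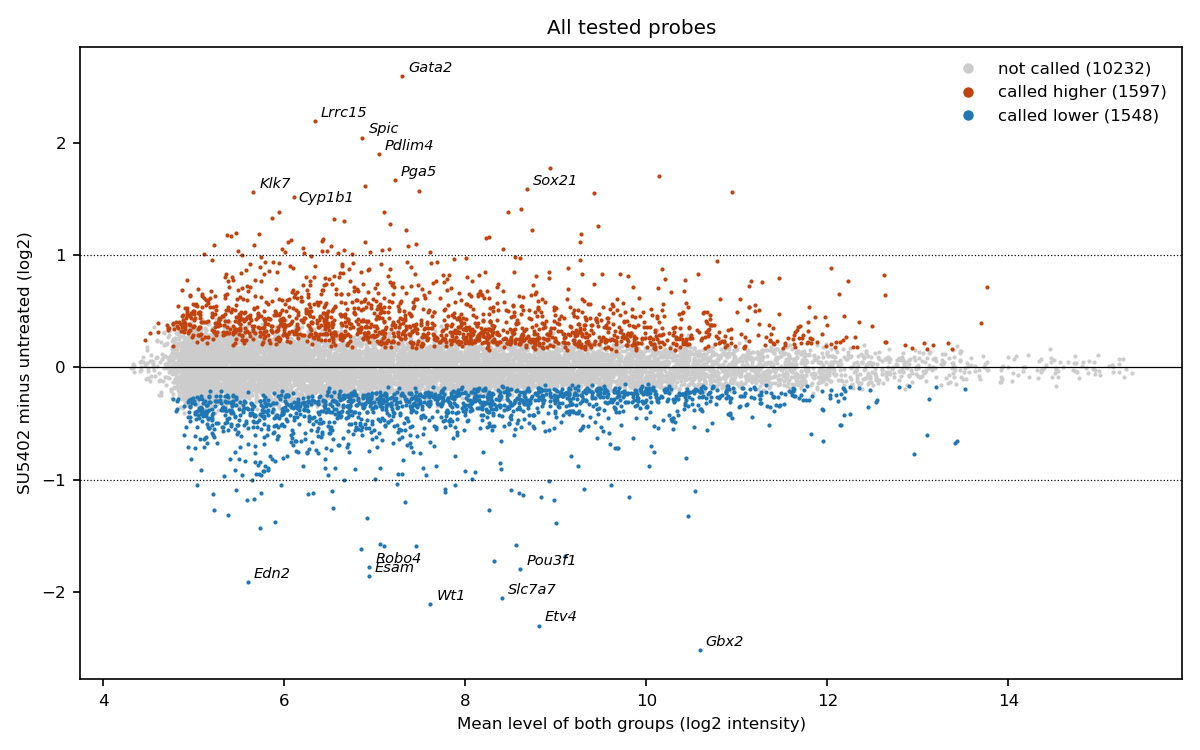
Difference between SU5402 and untreated cultures (vertical axis, log2) against the mean level of both groups (horizontal axis, log2 intensity) for the 13377 tested probes, with calls in colour and the 8 largest named changes of each direction labelled. Dotted lines mark 2-fold; most calls lie inside them, and Gbx2 is the large decrease at a high level.

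The largest decreases were those of Gbx2, Etv4, Wt1 and Slc7a7. Gbx2, a homeobox factor of the naive state that LIF also induces, had levels of 11.898, 11.85 and 11.798 in the untreated cultures and 9.33, 9.27 and 9.38 with SU5402, a 5.74-fold decrease (-2.52 ± 0.07; limma with Benjamini-Hochberg, adjusted p = 6.39e-10, n = 3 cultures a group, as throughout). Etv4, an ETS factor induced by ERK, stood at 9.82, 10.03 and 10.03 untreated and 7.699, 7.62 and 7.66 treated (-2.301 ± 0.08, 4.93-fold lower). The groups were far apart for both genes, and Gbx2 remained well expressed under SU5402 while losing most of its signal. Wt1, a zinc-finger factor of kidney and gonad development, went from 8.68, 8.62 and 8.703 to 6.799, 6.44 and 6.44 (-2.11 ± 0.098). Slc7a7, the light subunit of a cationic amino acid exchanger, went from 9.26, 9.54 and 9.49 to 7.31, 7.604 and 7.22 (-2.05 ± 0.096), and its second probe fell as well. Treated cultures were below every untreated one, although they differed more among themselves for these genes than for Etv4.

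Pou3f1, a POU factor of the early epiblast and of neural progenitors, was at 9.39, 9.64 and 9.48 untreated and 7.76, 7.72 and 7.63 with SU5402 (-1.801 ± 0.08). Tcf15, a helix-loop-helix factor that primes ES cells for differentiation, was at 9.92, 10.0003 and 9.902 and 8.28, 8.24 and 8.27 (-1.68 ± 0.07). Bmp4, a ligand that sustains ES cells together with LIF, was at 8.26, 8.27 and 8.23 and 6.64, 6.65 and 6.71 (-1.59 ± 0.07). For Tcf15 and Bmp4 the cultures of a group were almost superposed. The endothelial adhesion genes Esam (-1.86 ± 0.11) and Robo4 (-1.78 ± 0.096) fell, as did Ccdc3, a secreted protein gene (-1.62 ± 0.09), and the Sprouty gene Spry4 (-1.59 ± 0.13). Edn2, an endothelin, was detected on 4 of 4 untreated arrays and 0 of 4 treated ones and was at least 2.88-fold lower, with levels of 6.604, 6.54 and 6.53 against 4.71, 4.52 and 4.699.

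Further down the ranking were Pdk1, a mitochondrial kinase that inhibits pyruvate dehydrogenase (-1.58 ± 0.07), and Epha1, an ephrin receptor (-1.57 ± 0.08). Myc, a driver of growth and self-renewal, fell to the edge of detection (-1.43 ± 0.09, detected on 2 of 4 treated arrays). Rarg, a retinoic acid receptor (-1.11 ± 0.07), Nt5e, an ecto-nucleotidase (-1.098 ± 0.06), Plvap, a protein of endothelial diaphragms (-1.13 ± 0.101), and Bst2, an interferon-induced membrane protein (-1.34 ± 0.21), fell at least 2-fold. So did Zfp423, a zinc-finger partner of SMAD proteins (-1.26 ± 0.12), Sptbn4, a spectrin of the axon (-1.17 ± 0.09), Naprt, an enzyme of NAD synthesis (-1.20 ± 0.09), and Manba, a lysosomal mannosidase (-1.15 ± 0.06). Pdyn, an opioid peptide gene, fell by its named probe (-1.18 ± 0.11), while its other probe was not called (-0.16, adjusted p = 0.43 by limma with Benjamini-Hochberg).

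The largest increases included several transcription factors, among them members of the trophectoderm and simple epithelial lists described further on. Gata2, a GATA factor needed in trophoblast and blood progenitors, had levels of 6.005, 5.94 and 6.05 untreated and 8.59, 8.58 and 8.64 with SU5402, a 6.07-fold increase (2.601 ± 0.08; limma with Benjamini-Hochberg, adjusted p = 1.19e-09). Lrrc15, a leucine-rich repeat membrane protein, went from 5.21, 5.27 and 5.25 to 7.52, 7.26 and 7.53 (2.19 ± 0.08). Spic, an ETS factor of the SPI1 branch, went from 6.11, 5.73 and 5.67 to 7.92, 7.86 and 7.88 (2.05 ± 0.09), and its second probe was detected only on the treated arrays (at least 1.49-fold higher). These genes started near the lower end of detected signal, so that the gain brought them to a middling level. Pdlim4, a PDZ-LIM protein of actin fibres, went from 6.08, 6.26 and 5.93 to 7.91, 7.96 and 8.12 (1.904 ± 0.08). Sox21, a SOX factor of neural and early embryonic cells, went from 7.94, 7.93 and 7.79 to 9.45, 9.47 and 9.51 (1.59 ± 0.06), and a second probe rose too (1.19 ± 0.105); the remaining tested probe was detected on none of the 8 arrays. Tfap2c, an AP-2 factor of trophoblast and germ cells, went from 10.16, 10.13 and 10.18 to 11.76, 11.65 and 11.76 (1.56 ± 0.06). Tfap2c was the brightest of the leading increases, and its cultures lay close together in each group.

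Pga5, a pepsinogen (1.67 ± 0.08), Cyp1b1, a cytochrome that oxidises steroids and aromatic compounds (1.62 ± 0.105), Gpat3, an acyltransferase of triglyceride synthesis (1.52 ± 0.099), Elf3, an epithelial ETS factor (1.41 ± 0.08), and Rhox9, an X-linked homeobox gene (1.39 ± 0.08), completed the leading increases. Klk7, a kallikrein protease of epidermis, rose from detection on 1 of 4 arrays (1.57 ± 0.09). Next came Gsc, a homeobox factor of the organizer (1.38 ± 0.06), Gata3 (1.31 ± 0.07), the water channel Aqp3 (1.26 ± 0.08), the neurite guidance gene Rgma (1.201 ± 0.11) and the helix-loop-helix factor Msc (1.16 ± 0.06). Dppa3, which eggs supply and naive cells express (1.12 ± 0.06), Sfrp1, a secreted Wnt inhibitor (1.09 ± 0.09), Id4, an inhibitor of helix-loop-helix factors (1.06 ± 0.12), and Hs6st1, which adds sulfate to heparan sulfate (1.05 ± 0.07), rose about 2-fold. Chrnb3, a nicotinic receptor subunit, was detected on 0 of 4 untreated and 4 of 4 treated arrays (at least 1.88-fold higher), with levels of 4.75, 4.93 and 4.67 against 5.53, 6.35 and 6.002. Of the 109 probes changed at least 2-fold, 9 carry no gene symbol and are not named.

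**Figure D2:**
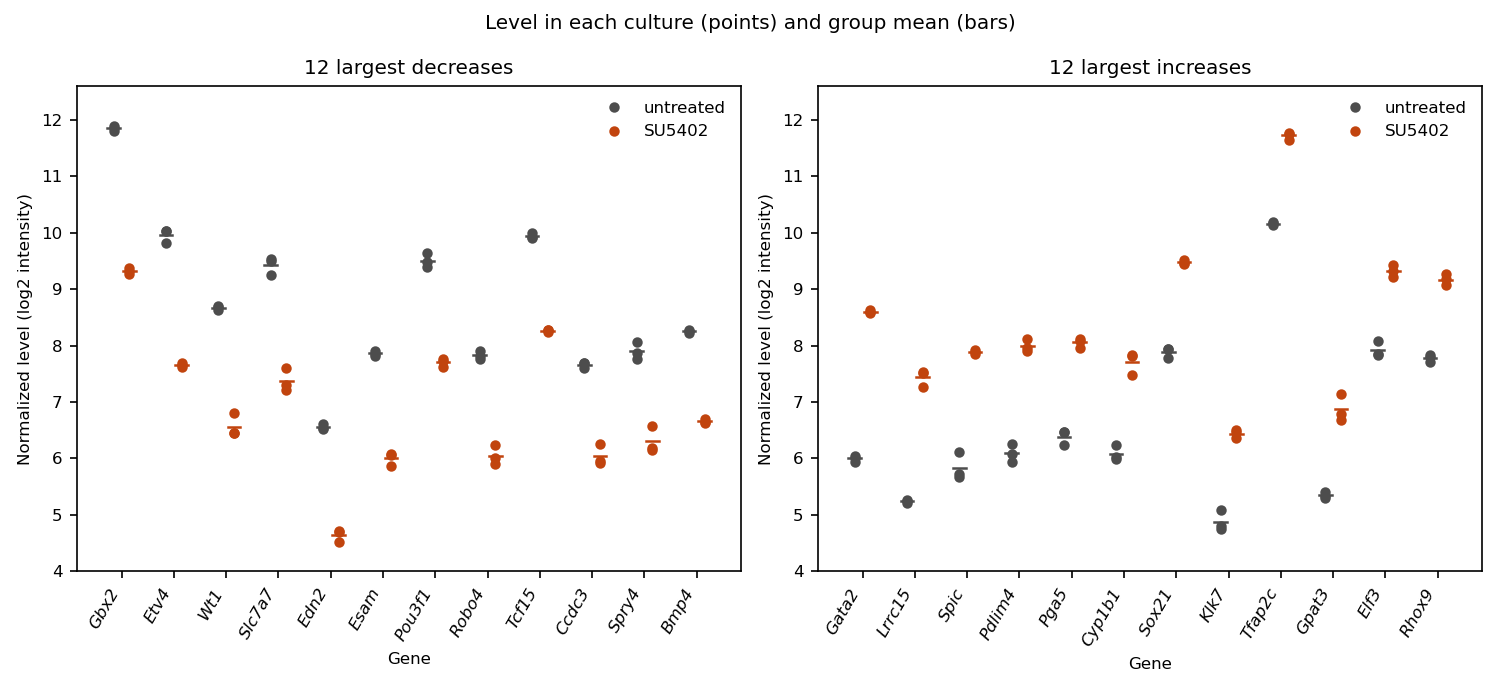
Normalized level (log2 intensity) of the 12 genes with the largest decrease (left) and the 12 with the largest increase (right); each point is a culture and each short bar the mean of 3 cultures. In every gene the SU5402 cultures lie apart from the untreated ones, and most increases start below a level of 7; these genes were chosen for their change, so the separation is a description.

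The groups did not overlap for 19% of tested probes above the untreated cultures and 19.6% below them, so that lack of overlap alone marks no gene out. Of the 80 named genes, 40 in each direction, 27 had another tested probe. All other probes of 25 of them were called in the same direction, 1 of them, of Sox21, without detection on any array, Copz2 and Pdyn had 1 that was not called, and none was called the opposite way. Over all 2437 genes with several tested probes, 286 had all probes called the same way, 604 had some called in a single direction and 2 (Trim21 and Ypel3) had calls both ways.

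Some of these genes are neighbours in the genome. In RefSeq gene order (GRCm38.p6, used for order because the array files name no build), Robo4 and Esam lie next to each other on chromosome 9, with Vsig2, an immunoglobulin-domain gene, after them (-0.91 ± 0.13, detected on 4 untreated and 0 treated arrays). The genes on either side of these 3, Tmem218 (0.24 ± 0.12) and Siae (0.14 ± 0.10), were not called. Plvap and Bst2 neighbour each other on chromosome 8, and Rhox6 (1.05 ± 0.09) and Rhox9 on the X. Among 9053 adjacent pairs of tested genes 182 were both called higher, 181 both lower and 239 in opposite directions. Over all tested genes 12.78% were called higher and 12.28% lower. The number of pairs that these shares alone would give was not calculated.

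The 300 bases around the annotated start (250 before it and 50 after) are shown as RefSeq promoters of GRCm38.p6. They are given for Gbx2, Bmp4, Gata2 and Sox21, picked from the leading genes, and for the ERK target Dusp6. The reference holds no promoter for Etv4, Wt1, Pou3f1 or Tfap2c. Capitals mark each match, on either strand, to 6 motifs. The ETS motif, for the family of Etv4 and Elf3, was CCGGAAG. The AP-1 motif, for the dimers of Fos and Jun, was TGANTCA. The motif of cyclic AMP response factors (CRE) was TGACGTCA. The E-box of Myc-type factors was searched as CACGTG. The GATA motif was AGATAA, and the GC box of SP factors was GGGCGG. No other motif was searched, and no matches overlap in these windows.
Gbx2 (chr1:89931127-89931426, minus strand): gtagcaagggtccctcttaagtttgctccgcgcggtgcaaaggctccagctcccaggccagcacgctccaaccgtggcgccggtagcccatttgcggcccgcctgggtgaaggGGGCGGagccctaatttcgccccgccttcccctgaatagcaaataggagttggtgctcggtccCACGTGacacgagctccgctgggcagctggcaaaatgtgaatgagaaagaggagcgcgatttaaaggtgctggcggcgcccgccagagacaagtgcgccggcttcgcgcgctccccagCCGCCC
Bmp4 (chr14:46390620-46390919, minus strand): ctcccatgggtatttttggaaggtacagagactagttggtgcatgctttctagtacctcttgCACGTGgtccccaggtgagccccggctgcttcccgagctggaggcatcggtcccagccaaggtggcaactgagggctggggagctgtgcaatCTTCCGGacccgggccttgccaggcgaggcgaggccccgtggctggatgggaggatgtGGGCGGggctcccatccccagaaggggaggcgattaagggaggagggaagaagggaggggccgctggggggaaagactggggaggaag
Dusp6 (chr10:99262981-99263280, plus strand): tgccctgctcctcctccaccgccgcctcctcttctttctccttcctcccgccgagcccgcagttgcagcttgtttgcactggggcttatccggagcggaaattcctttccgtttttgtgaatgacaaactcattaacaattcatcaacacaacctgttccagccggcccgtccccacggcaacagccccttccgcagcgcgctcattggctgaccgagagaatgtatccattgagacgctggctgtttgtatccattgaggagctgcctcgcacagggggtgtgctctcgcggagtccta
Gata2 (1 of its 2 listed starts, chr6:88193641-88193940, plus strand): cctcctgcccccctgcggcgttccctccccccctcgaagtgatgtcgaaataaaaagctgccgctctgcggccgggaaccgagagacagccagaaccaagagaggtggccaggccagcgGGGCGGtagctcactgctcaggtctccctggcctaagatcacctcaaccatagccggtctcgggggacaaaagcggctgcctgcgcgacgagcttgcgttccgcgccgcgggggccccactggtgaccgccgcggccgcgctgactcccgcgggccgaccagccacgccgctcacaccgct
Sox21 (chr14:118236981-118237280, minus strand): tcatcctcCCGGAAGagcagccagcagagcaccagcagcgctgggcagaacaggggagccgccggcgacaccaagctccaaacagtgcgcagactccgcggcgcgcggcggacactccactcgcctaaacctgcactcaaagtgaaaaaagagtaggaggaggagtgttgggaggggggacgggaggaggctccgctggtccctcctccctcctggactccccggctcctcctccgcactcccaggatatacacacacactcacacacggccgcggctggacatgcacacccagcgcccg

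Among the windows shown, the ETS letters occur in Bmp4, 96 bases before the start, and in Sox21, 242 bases before it, and so in 1 gene that fell and 1 that rose. The windows of Lrrc15, Spic, Pdlim4, Slc7a7 and Edn2 were searched too, are not shown, and held no ETS match. The Dusp6 window holds no match to any of the 6 motifs. Among genes changed at least 2-fold with a promoter in the table, 1 of 29 higher (3.45%) and 2 of 26 lower (7.69%) held the ETS letters, against 18.5% of the 7414 tested genes with a promoter and 9.12% of all 27025 promoters. The GC box was in 72.4% of the higher, 73.1% of the lower and 64.9% of the tested promoters. A match is a description of letters and not a binding site.

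The FGF-ERK genes are taken by role, each gene by its brightest tested probe. Over all 9107 tested genes so represented, 12.78% were called higher and 12.28% lower, and the median difference was -0.0031. Of the 10 tested genes of the ligand list 4 rose and 2 fell. Fgf4, the main FGF of ES cells, was at 7.47, 7.35 and 7.196 untreated and 7.96, 7.79 and 7.75 with SU5402 (0.498 ± 0.09). Fgf8, a ligand of the gastrulating embryo, was at 5.86, 5.63 and 5.63 and 6.72, 6.71 and 6.75 (1.02 ± 0.09). The ligands that rose thus include the FGF that ES cells chiefly use. Fgf10, a ligand of limb and lung buds (0.45 ± 0.07), and Fgfbp1, which releases FGFs from matrix (0.397 ± 0.08), rose, whereas Fgf15, a hormone-like FGF (-0.67 ± 0.099), fell. Fgf5, a marker of the primed epiblast, was detected on 4 untreated and 0 treated arrays and was at least 1.2-fold lower.

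Of 4 tested receptor genes 1 rose. Fgfr2 was detected on 0 of 4 untreated and 4 of 4 treated arrays, at 4.495, 4.403 and 4.71 and 5.42, 5.19 and 5.32 (at least 1.2-fold higher). Fgfr1, the principal receptor of ES cells, was not called by its brightest probe (0.29 ± 0.12, 95% interval 0.04 to 0.54; limma with Benjamini-Hochberg, adjusted p = 0.0911), and without SU5402 culture 2 it was (adjusted p = 0.0445). A second, dimmer Fgfr1 probe was called higher (0.41, adjusted p = 0.0138 by limma with Benjamini-Hochberg). Fgfrl1, a receptor without a kinase (0.26 ± 0.09), was called when SU5402 culture 3 was left out (adjusted p = 0.00725). The co-receptor gene Flrt3 stood at 0.002 ± 0.06.

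The cascade itself moved little. Of 12 tested members 2 rose and 2 fell, with called differences between -0.23 and 0.34. The adaptor Shc1 fell (-0.23 ± 0.06). The docking gene Gab1 (-0.17 ± 0.05), the RAF gene Araf (0.18 ± 0.05) and the MEK gene Map2k1 (0.34 ± 0.11) passed with all cultures, but leaving out single cultures ended each call: Gab1 without any culture but untreated 2, Araf without SU5402 2 or untreated 1 or 2, and Map2k1 without SU5402 2 or 3 or untreated 1 or 3 (limma with Benjamini-Hochberg, adjusted p 0.051 to 0.178). The adaptor Grb2 (-0.098 ± 0.101), the phosphatase Ptpn11 (0.04 ± 0.06), Nras (-0.03 ± 0.06) and Map2k2 (-0.15 ± 0.06) were not called. Map2k2 was called lower with median scaling and with the authors' processed values, among others (limma with Benjamini-Hochberg, adjusted p = 0.048 and 0.045).

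Of the 16 tested feedback inhibitors of ERK 6 fell and 2 rose. Dusp6, a phosphatase that acts on ERK, was at 9.82, 9.57 and 9.705 untreated and 8.24, 8.26 and 8.41 with SU5402 by its most changed probe (-1.39 ± 0.07) and fell by its others (-1.33 and -1.09). Dusp4, a nuclear ERK phosphatase, was at 8.86, 8.93 and 8.903 and 7.57, 7.703 and 7.599 (-1.27 ± 0.08). Spry4 was at 7.76, 7.87 and 8.06 and 6.57, 6.19 and 6.14. By these probes all 3 genes were still detected in the treated cultures, and the Spry4 cultures were the most spread. Spred1, an inhibitor of RAS activation (-0.91 ± 0.07), Il17rd, an FGF receptor antagonist at the membrane (-0.398 ± 0.08), and Dusp1 (-0.32 ± 0.06) fell too. Spry2 was not called, with a wide interval (0.05 ± 0.202, -0.39 to 0.49), nor were Dusp7 (0.05 ± 0.09), Dusp9 (-0.18 ± 0.16) and Spred3 (-0.06 ± 0.12). Spred2 (-0.24 ± 0.09) was called only without untreated culture 2 (adjusted p = 0.0134). Dusp14 rose (0.47 ± 0.08), and Dusp16 (0.21 ± 0.07) was higher with all cultures but lost its call when any 1 culture but SU5402 2 was left out (limma with Benjamini-Hochberg, adjusted p 0.0639 to 0.113).

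Factors induced by ERK divided, 3 of 14 lower and 3 higher. Of the PEA3 group, Etv4 and Etv1 fell; 1 Etv1 probe was lost from detection (at least 1.78-fold lower) and the brighter one fell as well (-0.92 ± 0.15). Etv5 was at 9.15, 9.15 and 9.11 untreated and 8.95, 9.098 and 8.97 with SU5402, below but not called (-0.13 ± 0.07, -0.28 to 0.01; limma with Benjamini-Hochberg, adjusted p = 0.162). The immediate early genes Egr1 (0.14 ± 0.06), Jun (0.14 ± 0.06), Junb (-0.12 ± 0.07) and Ier3 (0.12 ± 0.06) were not called, and Fos (0.16 ± 0.09) was called only without SU5402 culture 3 (adjusted p = 0.0335). Their intervals exclude a 2-fold decrease. Mycl (0.66 ± 0.07), Jund (0.48 ± 0.09) and Klf6 (0.42 ± 0.08) rose while Myc fell.

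**Figure D3:**
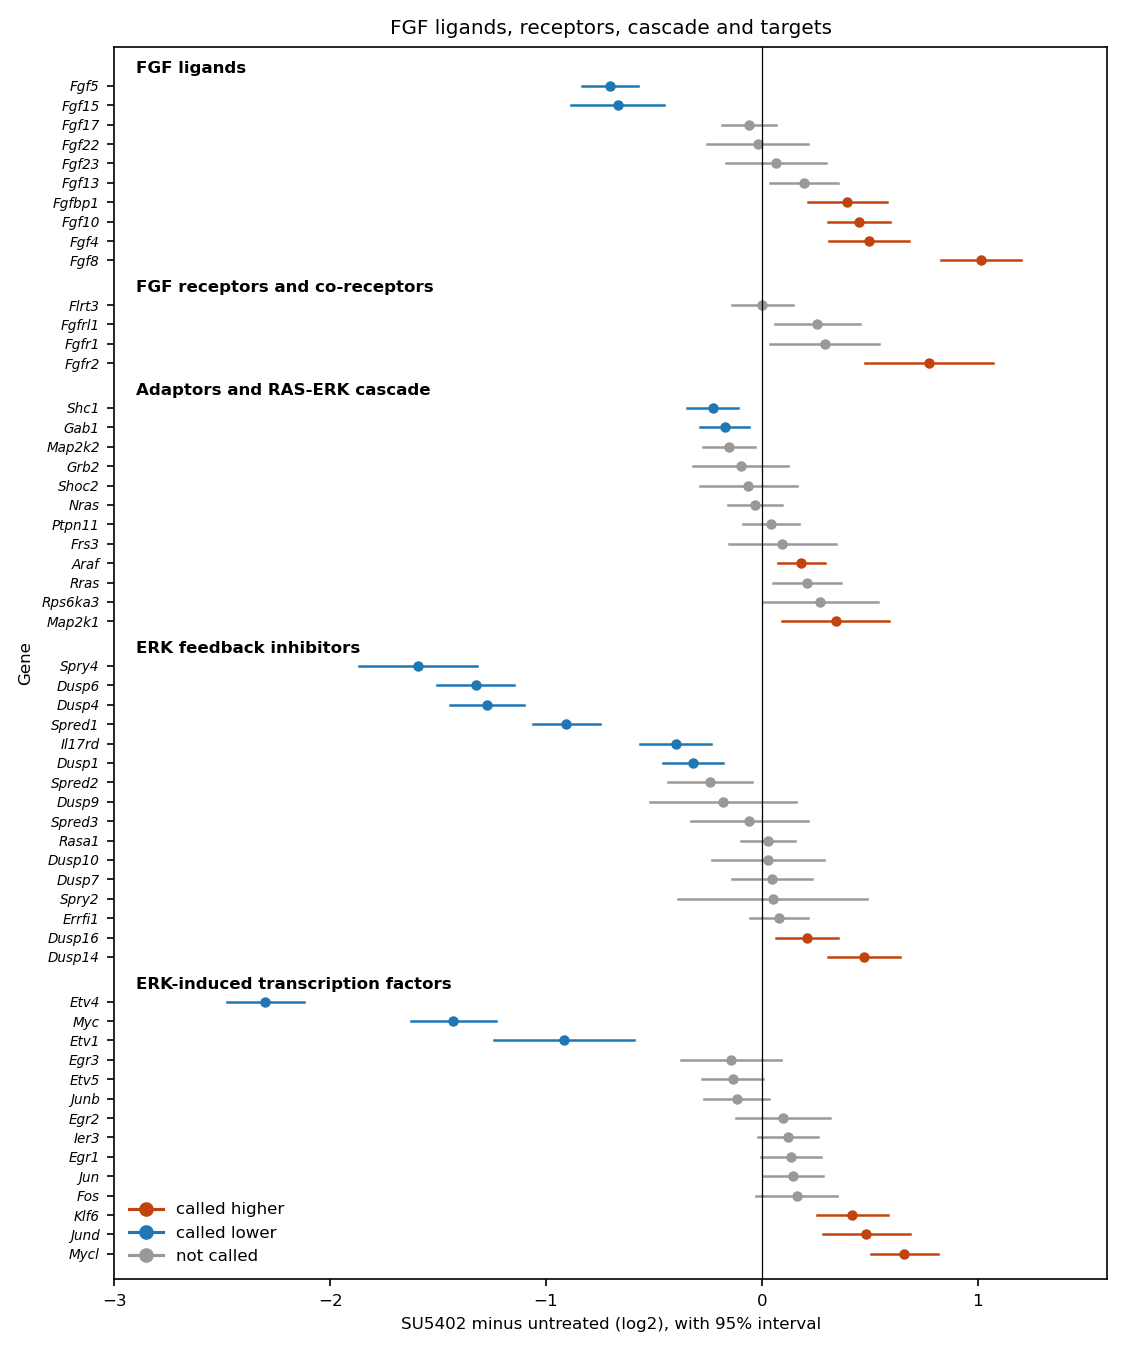
Difference between SU5402 and untreated cultures (log2, with 95% interval) for every tested member of 5 FGF-ERK lists, ordered by size within each list. Large decreases are among feedback inhibitors and induced factors, whereas cascade members lie between -0.23 and 0.34.

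In a list of other receptor tyrosine kinases and their ligands, not limited to targets of SU5402, 6 of 15 tested genes rose and 1 fell. The angiogenic ligand Vegfa (0.68 ± 0.06), the growth factor Igf2 (0.83 ± 0.07), the receptors Tek (0.54 ± 0.12), Flt1 (0.42 ± 0.06) and Egfr (0.398 ± 0.098) rose, and Vegfc fell (-0.63 ± 0.06). The PDGF receptor Pdgfra (0.02 ± 0.14) and Igf1r (0.07 ± 0.14) were not called. Of 15 genes of PI3K signalling 6 rose, among them the insulin adaptor Irs2 (0.36 ± 0.08) and the regulatory subunit Pik3r3 (0.53 ± 0.08), and 2 fell, the transcription factor Foxo1 (-0.52 ± 0.06) and Akt1 (-0.28 ± 0.09), of which Akt1 was lost without any 1 culture but untreated 3.

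Genes of the naive state rose and those of the primed epiblast mostly fell. Of 16 tested naive genes 13 rose and 2 fell (median 0.41). Nanog, a core homeobox factor, was at 11.88, 11.82 and 11.81 untreated and 12.66, 12.54 and 12.64 with SU5402 (0.78 ± 0.06). Tbx3, a T-box factor downstream of LIF, was at 8.27, 8.44 and 8.43 and 9.30, 9.06 and 9.21 (0.81 ± 0.09). The groups did not overlap for either, and the added signal of Nanog came on top of a high level. The Krüppel-like factors Klf2 (0.61 ± 0.06) and Klf4 (0.57 ± 0.08), the nuclear receptors Esrrb (0.45 ± 0.06) and Nr5a2 (0.36 ± 0.07) and the surface protein Pecam1 (0.603 ± 0.07) rose. Klf5 fell (-0.35 ± 0.06) beside Gbx2, and Dppa5a was not called (0.07 ± 0.06).

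Among 15 tested primed genes 9 fell and 3 rose (median -0.395). Beyond Pou3f1, Tcf15 and Fgf5, the Wnt-responsive factor Lef1 was lost from detection (at least 1.27-fold lower), and Otx2, a homeobox factor that redirects enhancers in the primed state, fell (-0.39 ± 0.06). The methyltransferase Dnmt3b fell by its brightest probe (-0.77 ± 0.06) and more by another (-1.09 ± 0.08), as did its cofactor Dnmt3l (-0.66 ± 0.05), whereas the maintenance enzyme Dnmt1 was not called (0.01 ± 0.07). The members that rose were the simple keratins Krt8 (0.46 ± 0.07) and Krt18 (0.43 ± 0.098), which epithelia and trophectoderm share, and Cldn6 (0.26 ± 0.06).

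Genes of pluripotency in general went both ways, 3 of 13 higher and 5 lower (2 lower without SU5402 culture 1 or untreated culture 2). Sox2 was at 9.72, 9.78 and 9.67 untreated and 10.07, 10.05 and 10.19 with SU5402 (0.38 ± 0.09). Utf1, a chromatin protein of pluripotent cells, was at 11.11, 11.04 and 11.11 and 9.91, 9.98 and 10.07 (-1.102 ± 0.07). Thus Sox2 moved up while Utf1 moved down, each without overlap of the groups. Pou5f1 was not called by its brightest probe (-0.15 ± 0.08), and a second probe was called slightly lower (-0.20, adjusted p = 0.0188 by limma with Benjamini-Hochberg). The tetraspanin Cd9 rose (0.79 ± 0.07) and Dppa4 fell (-0.42 ± 0.06).

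Of 18 trophectoderm genes on the array 14 were tested, and of these 11 rose and 0 fell (median 0.46). The members Elf5, Hand1 and Esx1 were detected on 0 untreated and 0 SU5402 arrays, and Ascl2 on 1 and 0, and they were not tested. Gata3, a partner of Gata2 in trophoblast, was at 6.08, 6.03 and 5.91 untreated and 7.31, 7.36 and 7.28 with SU5402 (1.31 ± 0.07). Beside Gata2, Tfap2c, Rhox6 and Rhox9, the AP-2 factor Tfap2a (0.50 ± 0.08) and Ets2 (0.35 ± 0.06) rose. The lineage's defining factors Cdx2 (0.07 ± 0.07) and Eomes (0.03 ± 0.07) were not called. Of 20 genes of simple epithelia 11 rose, among them Krt7 (0.45 ± 0.096), Krt42 (0.54 ± 0.06) and the tight junction gene Cldn4 (0.62 ± 0.07), and 3 fell, the epithelial regulators Grhl2 (-0.52 ± 0.09), Ovol1 (-0.42 ± 0.09) and Esrp1 (-0.34 ± 0.08). Cldn3 was detected on 0 untreated and 4 treated arrays (at least 1.19-fold higher).

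Of 16 tested genes of basement membrane and matrix 8 rose, 8 were not called and 0 fell (median 0.225). Those called higher included the collagen IV chains Col4a1 (0.52 ± 0.06) and Col4a2 (0.55 ± 0.12), nidogen Nid1 (0.55 ± 0.09), the laminin chains Lama1 (0.43 ± 0.07) and Lamc1 (0.36 ± 0.07), perlecan Hspg2 (0.497 ± 0.07) and Sparc (0.297 ± 0.06). Lamb1, the remaining chain (0.42 ± 0.13), lost its call without SU5402 culture 2 or 3 or untreated culture 1 or 2. Of 16 genes of primitive endoderm, which shares those chains, 8 rose, and its lineage factors did not: Gata4 (0.17 ± 0.16), Sox7 (-0.25 ± 0.09) and Hnf4a (-0.12 ± 0.08) were not called, although without untreated culture 2 Gata4 was called higher and Sox7 lower (adjusted p = 0.0462 and 0.00876, limma with Benjamini-Hochberg). Gata6 (-0.38 ± 0.11), the list's single lower call, was lost without SU5402 culture 1 or 2 or untreated culture 1 or 3. Hence the rise of this list was made of matrix genes and of Dab2, an endocytic adaptor (0.48 ± 0.08).

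Genes tied to actin and to the Hippo and SRF pathways rose in the main, 13 of 22 higher (8 without SU5402 culture 2) and 1 lower (median 0.25). Ccn1, a matricellular target of YAP, was at 8.05, 7.83 and 7.71 untreated and 8.46, 8.49 and 8.58 with SU5402 (0.64 ± 0.09). Ccn2 (0.51 ± 0.05), skeletal actin Acta1 (0.74 ± 0.11), tropomyosin Tpm1 (0.497 ± 0.05) and the YAP partner Tead2 (0.48 ± 0.07) rose with Pdlim4, and the focal adhesion gene Zyx fell (-0.499 ± 0.06). Of 19 cell adhesion genes 8 rose, including the integrin Itgb5 (0.55 ± 0.06) and Jam2 (0.83 ± 0.09), and 2 fell, Esam and the integrin Itga3 (-0.53 ± 0.06); Icam1 was not called (-0.07 ± 0.101). The 11 endothelial-type genes split, 5 lower and 4 higher: beside Edn2, Esam and Robo4, Ramp2 fell (-0.75 ± 0.08), and Edn1 rose (0.72 ± 0.07).

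Among developmental signals, the BMP list held 5 higher and 2 lower of 15 (3 higher without SU5402 culture 2 or 3). Bmp4 fell, and the second lower call, Bmp8a (-0.33 ± 0.102), was lost without any 1 culture but untreated 2. In the same list the targets Id2 (0.64 ± 0.09), Id4 and Msx2 (0.46 ± 0.102) rose and Id1 (-0.12 ± 0.08) and Id3 (-0.07 ± 0.07) were not called. In the Nodal list, 3 of 13 rose, with the antagonists Lefty1 (0.61 ± 0.06) and Lefty2 (0.54 ± 0.07), and 4 fell (1 to 2 without SU5402 culture 1 or 2 or untreated culture 2 or 3), with the activin subunit Inhbb (-0.82 ± 0.09) the largest; Nodal itself was not called (0.08 ± 0.08). Of 13 Notch genes 5 rose (3 without SU5402 culture 2 or untreated culture 1), led by the receptor Notch1, at 7.204, 7.47 and 7.49 untreated and 8.37, 8.32 and 8.38 with SU5402 (0.97 ± 0.09), with Notch3 (0.61 ± 0.08) and the ligand Jag1 (0.42 ± 0.099), while Hes6 fell (-0.66 ± 0.06).

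Wnt genes went both ways, 6 of 19 higher and 5 lower. Tcf7l1, a repressor of Wnt targets in ES cells, rose (0.73 ± 0.05) with Sfrp1 and Wnt7b (0.56 ± 0.13), and Wnt8a (-1.05 ± 0.10), Nkd2 (-0.43 ± 0.103) and Ccnd1 (-0.301 ± 0.07) fell. The feedback target Axin2 was not called (-0.05 ± 0.15). In the LIF list, Socs2 (-0.38 ± 0.06) and Socs3 (-0.38 ± 0.06), which restrain JAK kinases, fell and Klf4 rose, while Stat3 (0.05 ± 0.07) and Lifr (-0.16 ± 0.101) were not called (13 tested). Of 14 mesendoderm genes on the array 5 were tested, and 3 rose, namely Gsc, Fgf8 and Evx1 (0.31 ± 0.07). Mixl1, Cer1, Lhx1, Mesp1, Mesp2 and Tbx6 were detected on 0 untreated and 0 SU5402 arrays and were not tested. Of 17 neuroectoderm genes on the array 6 were tested, of which Sox21 rose and Neurod1 fell (-0.503 ± 0.101). In that list 2 further calls, Nes (0.31 ± 0.09) and Map2 (0.44 ± 0.15), were lost without SU5402 culture 2 or untreated culture 1, among others. Sox1, Pax6, Neurog2 and Olig2 were detected on 0 untreated and 0 SU5402 arrays and were not tested.

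**Figure D4:**
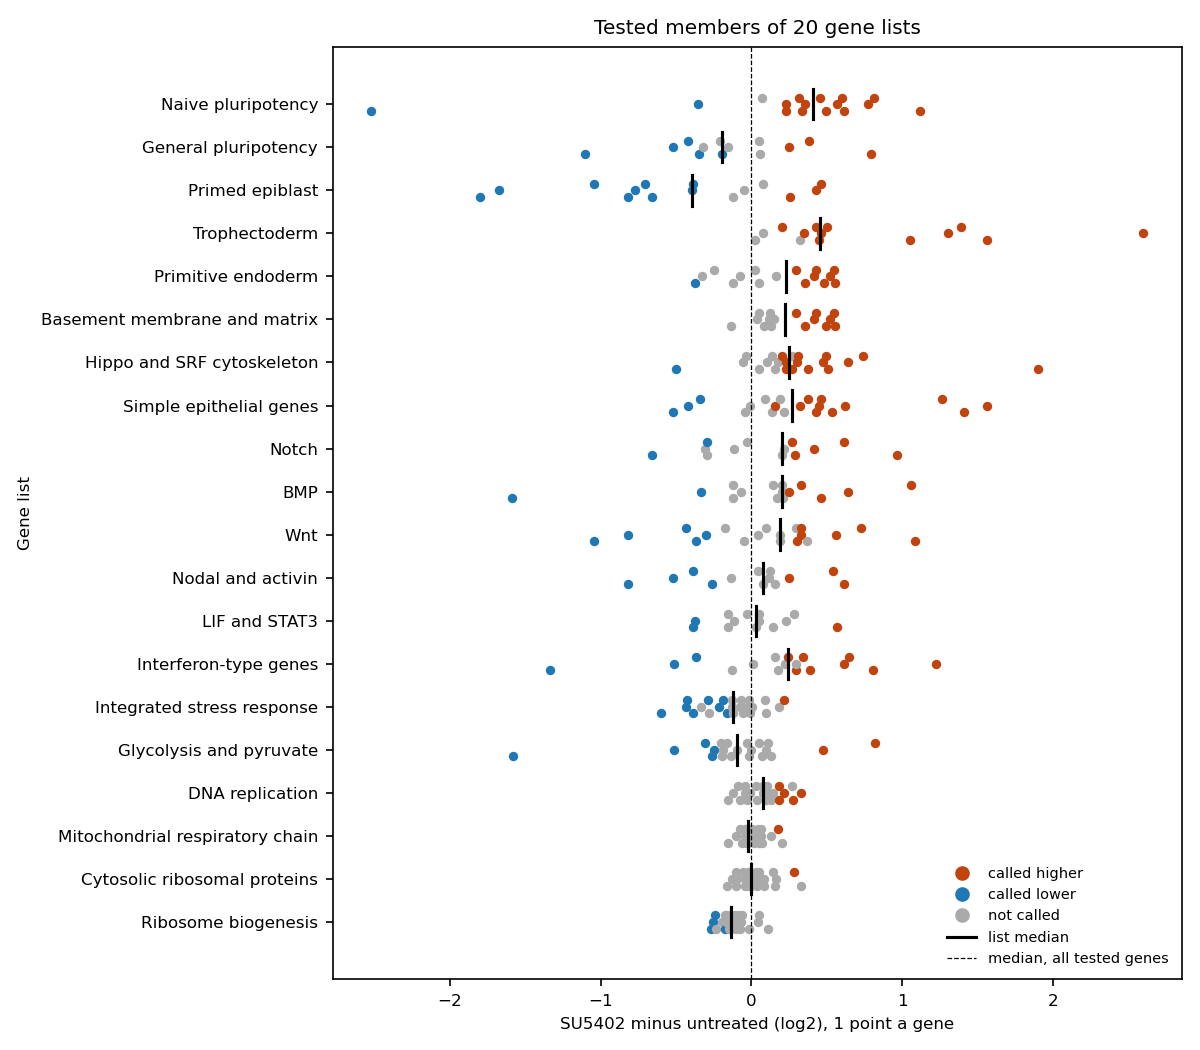
Difference between SU5402 and untreated cultures (log2) for the tested members of 20 gene lists, 1 point a gene by its brightest probe, with list medians as black bars and the median of all 9107 tested genes as a dashed line. The naive and trophectoderm medians lie at 0.406 and 0.455 and the primed epiblast median at -0.395, and respiratory chain and ribosomal protein genes cluster at 0.

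Among lists of growth and division, ribosomal protein and respiratory chain genes changed little, which was not so for regulators of G1 to S. Of 25 cytosolic ribosomal protein genes 1 rose (Rpl22, 0.28 ± 0.06; 2 without SU5402 culture 1), of 25 respiratory chain genes 1 (Cox5a, 0.18 ± 0.06; a call lost without SU5402 culture 1 or 2 or any 1 untreated culture) and neither list had a lower call. Ribosome biogenesis genes had 4 of 25 lower (0 without SU5402 culture 3 and 1 without untreated culture 2 or 3; median -0.14). DNA replication genes had 5 of 23 higher, and 1 to 3 without SU5402 culture 2 or 3 or any 1 untreated culture; Rrm2, a ribonucleotide reductase subunit, was the largest (0.33 ± 0.06). In the list of G1 to S regulators the inhibitors Cdkn1a (0.52 ± 0.08) and Rb1 (0.49 ± 0.07) rose, and the activator E2f2, at 7.08, 7.11 and 6.96 untreated and 6.52, 6.34 and 6.15 with SU5402, fell (-0.71 ± 0.08); 4 of 19 were higher and 6 lower (3 lower without untreated culture 3). Gadd45b, a stress-responsive gene, rose (1.04 ± 0.07), as did the pro-apoptotic Bik (0.75 ± 0.06), and Pmaip1 fell (-0.69 ± 0.07).

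In metabolism, 5 of 21 genes of glycolysis and pyruvate use fell and 2 rose. Pdk1 and lactate dehydrogenase Ldha (-0.51 ± 0.06) fell, while Slc2a3, a high-affinity glucose transporter, was at 12.21, 12.18 and 12.25 untreated and 12.99, 13.08 and 13.03 with SU5402 (0.82 ± 0.05), and the ubiquitous transporter Slc2a1 was lower (-0.25 ± 0.05). Gapdh was not called (-0.002 ± 0.05). Of 25 solute carriers 8 fell, among them Slc7a7, the nucleoside carrier Slc29a1 (-0.79 ± 0.06), the glutamate carrier Slc1a3 (-0.61 ± 0.07) and the arginine carrier Slc7a3 (-0.597 ± 0.07), and 4 rose, including the taurine carrier Slc6a6 (0.51 ± 0.06). The integrated stress response list had 8 of 24 lower (5 without untreated culture 2), with Mthfd2 (-0.44 ± 0.101), Chac1 (-0.43 ± 0.07) and Phgdh (-0.39 ± 0.07), and its regulators Atf4 (-0.13 ± 0.12) and Ddit3 (-0.12 ± 0.08) not called. Trf, which encodes transferrin, fell (-0.999 ± 0.07).

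Of 28 interferon-type genes on the array 17 were tested, and these rose more often than they fell, 8 higher and 3 lower. Members not tested include Irf7, Ifit1, Oas1a, Mx1, Mx2 and Psmb8, detected on 0 untreated and 0 SU5402 arrays. Among all tested genes, Ddx58 was, like Bst2, one of the largest decreases (-1.04 ± 0.11). Ifitm1, a membrane protein also known from germ cell precursors, was at 7.97, 8.22 and 8.17 untreated and 9.17, 9.37 and 9.497 with SU5402 (1.22 ± 0.11). Cxcl10 (0.81 ± 0.18), Ifitm2 (0.65 ± 0.06) and Gbp2b (0.62 ± 0.05) rose, Bst2 and Psmb9 (-0.51 ± 0.098) fell, and Isg15 was not called (-0.13 ± 0.09), so the list did not move as a unit. Of 11 genes of the aryl hydrocarbon receptor list on the array 6 were tested, and 3 rose, with Cyp1b1 and Aldh3a1 (0.69 ± 0.12) the larger. The receptor gene Ahr and the list members Cyp1a1, Cyp1a2 and Tiparp were detected on 0 untreated and 0 SU5402 arrays and were not tested. Activity of the receptor was not tested. Chromatin genes stayed close to the background: of 30 Polycomb and trithorax genes 3 rose, among them the Polycomb accessory gene Phf19 (0.803 ± 0.08), and Eed (-0.03 ± 0.07) was not called.

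Detection itself changed for a further set. Of the tested probes 32 were detected on 0 of 4 untreated and 4 of 4 SU5402 arrays, and 27 of them were called higher. Another 31 were detected on 4 of 4 untreated and 0 of 4 SU5402 arrays, and 28 of them were called lower. Over all tested probes 11.9% were called higher and 11.6% lower. The probes were picked for their difference in detection, so their calls follow from the choice and are a description. Gained signals included Hesx1, a homeobox factor of the anterior embryo (at least 1.17-fold higher), Irx3, an Iroquois factor (at least 1.3-fold), the guidance ligand Slit2 (at least 1.28-fold) and the myelin genes Mbp (at least 1.35-fold) and Mobp (at least 1.17-fold). Lost signals included Grm6, a glutamate receptor (at least 2.01-fold lower), Cacng7, a calcium channel subunit (at least 1.73-fold), the lymphocyte receptor gene Cd6 (at least 1.33-fold) and the clock gene Per2 (at least 1.27-fold). Folds of such probes are lower bounds. Other tested probes of Cd6 (-0.84 and -0.58), Per2 (-0.56) and Mobp (1.0004) were called in the same direction, and they were still detected on some or all arrays of the dimmer group.

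SU5402 and chlorate were compared directly, because chlorate removes the sulfation through which heparan sulfate serves FGF receptors. Their comparisons with untreated cells share the same 3 control cultures, so only the direct contrast is a test of a difference. In it 340 probes were called (2.54%), 139 higher under SU5402 (1.04%) and 201 lower (1.5%). Without SU5402 culture 1, 2 or 3 the count was 179, 159 or 209, and within each array set alone it was 21 and 6. Of the 80 genes named for SU5402, 17 differed between the treatments by 0.31 to 1.17 log2 units, and in all 17 the change from untreated was the smaller under SU5402. This holds for those genes only. Outside the 80, Cldn3 differed the other way (0.56 ± 0.12 SU5402 minus chlorate, limma with Benjamini-Hochberg, adjusted p = 0.0252). Its differences from untreated were 0.56 with SU5402 and 0.004 with chlorate. How the rest of the 340 probes divide in this way was not counted.

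Etv4 differed by 1.17 ± 0.08 (SU5402 minus chlorate; limma with Benjamini-Hochberg, adjusted p = 2.46e-05), from -2.301 ± 0.08 with SU5402 and -3.47 ± 0.08 with chlorate against untreated. Nt5e differed by 1.10 ± 0.06, from -1.098 ± 0.06 and -2.199 ± 0.06. Dusp6 differed by 0.90 ± 0.07, from -1.39 ± 0.07 and -2.29 ± 0.07, and Dusp4 by 0.86 ± 0.08, from -1.27 ± 0.08 and -2.14 ± 0.08. Dusp6, Dusp4 and Etv4 were thus less reduced with 5 µM SU5402 than with 20 mM chlorate at 24 h. Smaller differences of this kind were found for Ifitm1 (-0.65 ± 0.11), Enox1, a cell-surface oxidase gene (0.64 ± 0.08), Pdk1 (0.63 ± 0.07), Spic (-0.56 ± 0.09), Msc (-0.53 ± 0.06) and Pga5 (-0.53 ± 0.08). Gbx2, the largest decrease, was not called between the treatments (0.08 ± 0.07; -2.52 ± 0.07 and -2.598 ± 0.07 against untreated), nor was Gata2 (-0.28 ± 0.08; 2.601 ± 0.08 and 2.88 ± 0.08). The ERK readouts Etv1 (0.0009 ± 0.08), Myc (-0.0013 ± 0.09) and Spry4 (0.40 ± 0.13) were not called either. Etv1 by this probe was detected on 0 and Myc on 2 SU5402 arrays, so a difference between the treatments could be missed for them.

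**Figure D5:**
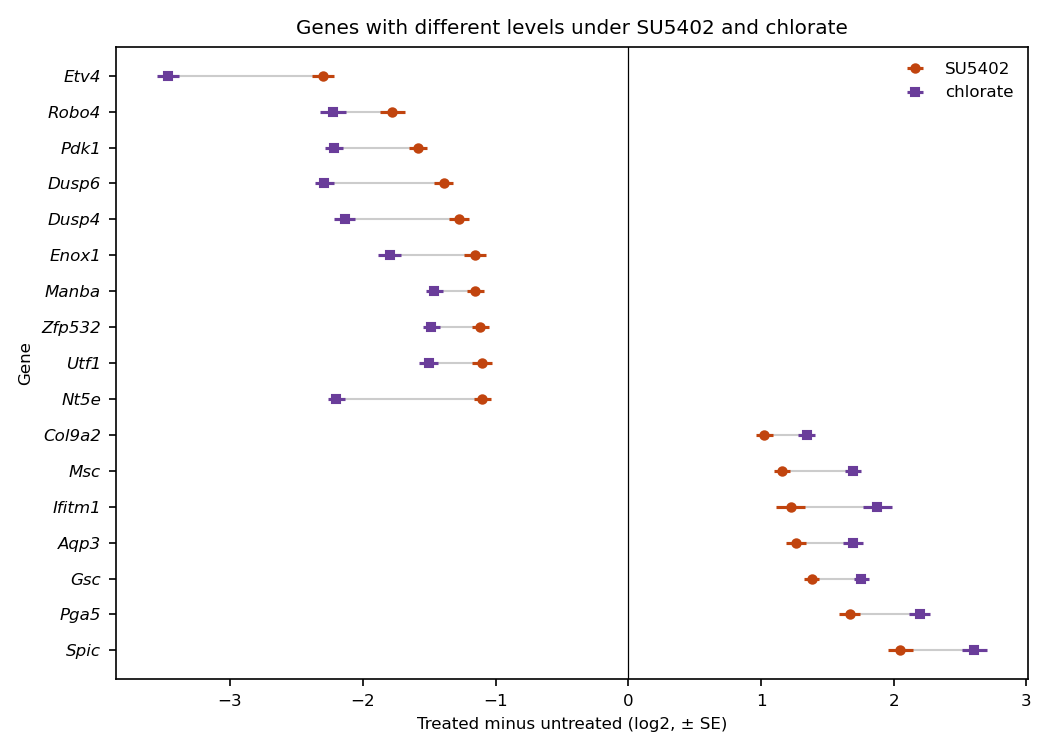
Difference from untreated cells (log2, ± SE) under SU5402 (circles) and chlorate (squares) for the 17 of 80 named genes called in the direct contrast of the treatments; both differences use the same 3 untreated cultures. In every gene the circle lies nearer to 0, most widely for Etv4 and Nt5e.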

How the data were processed

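For 25697 probes on 16 arrays the authors deposited non-normalized bead intensity, as the file headers call it, with a detection p-value per probe and array, as deposited. The submitters' processing notes name BeadStudio without a version. A further table of processed intensity was deposited by the authors; its normalization is not stated, its floor is 20, and it served only as an alternative.

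The normal-exponential model with the detection p-values (offset 16) removed the background, followed by quantile normalization and log2 (limma 3.58.1, R 4.3.3), and the 2 arrays of culture 3 were averaged. Probes with a mean detection p-value under 0.01 in at least 3 of 12 cultures were tested in 1 linear model of the 4 groups (8 residual and 4.37 prior degrees of freedom), with Benjamini-Hochberg adjustment within each comparison at 0.05. The fit was run on simulated data with independent noise in each culture. Such data hold no effects shared among cultures or arrays, so that run does not bear on them. Bounds ("at least") set the brighter mean against the lowest detected signal on each array, or the probe's own signal where that was higher. Of the probes 23978 have 1 gene symbol, 1719 none and 0 several. The number of arrays limits the precision.

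Named genes are the 40 largest called increases and decreases with 1 symbol and groups that do not overlap, up to 6 called and 5 uncalled members of each gene list, the FGF-ERK lists, probes that gained or lost detection, and the genes that differ most from chlorate. Lef1, Cldn3, Fgf5 and Fgfr2 come under both lists and detection. The second probes of Pou5f1 and Fgfr1, Trim21, Ypel3, Tmem218 and Siae were chosen after their values were seen. The members and the 52 gene lists were chosen with earlier results of these data known. Replicate numbers showed no pairing (correlations of deviations 0.12, 0.029 and -0.009). Alternatives varied background, normalization, filter, duplicate handling, spread, array set and single cultures.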

Additional observations from a re-analysis of the deposited data

How the results depend on the processing

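The 2-fold counts depended on how weak signal was scaled: 24 probes rose and 27 fell at least 2-fold with an offset of 50, 24 and 27 without background correction, and 103 and 87 with the authors' processed values. Calls higher numbered 1000 without normalization between arrays, where the median of all probes moved by -0.041 and 43.5% of the calls were higher, against 50.8% in the reported fit. Within array set A 844 and 691 probes were called higher and lower, and within set B 816 and 693; these fits hold fewer samples. The SU5402 minus chlorate count was 191 with median scaling, 134 without normalization, 520 with intensity trend and robust spread, 21 and 6 within sets A and B and 698 with the array set as a block, which counts both arrays of culture 3. Leaving out 1 culture gave 1285 to 1330 higher, 1173 to 1307 lower, 56 to 63 and 49 to 57 at least 2-fold, and 159 to 356 between SU5402 and chlorate. The replicate numbers were not shown to pair the cultures; with a replicate block 1699 probes were higher and 1630 lower. No printed gene reversed. Of 207 printed gene values called in the reported fit, 154 kept direction and call under every alternative; the cause of the others' loss was not tested. Fitting only the SU5402 and untreated groups gives no chlorate contrast. Signal over background limits folds of weak probes.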

Other observations

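Among lists not described above, the tested antioxidant genes split: the glutathione transferases Gstm1 (0.77 ± 0.07) and Gstm2 (0.61 ± 0.07), Gpx4, which reduces lipid peroxides (0.58 ± 0.07), and the mitochondrial dismutase Sod2 (0.45 ± 0.08) rose, while the metallothionein Mt1 (-0.67 ± 0.06) and the sulfiredoxin Srxn1 (-0.402 ± 0.06) fell (log2 difference ± SE, n = 3 cultures a group, limma). Of 14 heparan sulfate enzyme genes 3 rose and 3 fell; beside Hs6st1, the polymerase subunit genes moved apart, Ext2 higher (0.33 ± 0.06) and Ext1 lower (-0.31 ± 0.07), and Sulf1, which removes 6-O-sulfate, fell (-0.38 ± 0.05). Of 15 imprinted genes 3 rose, including Igf2 and Peg3 (0.42 ± 0.10), and 5 fell, including Grb10, an adaptor that restrains insulin receptors (-0.41 ± 0.08), and Snrpn (-0.43 ± 0.07); without SU5402 culture 1 or untreated culture 2 the lower calls numbered 3. The retinoic acid receptor Rarg fell beside the binding protein Crabp1 (-0.34 ± 0.08), whereas Crabp2 rose (0.36 ± 0.07).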
